A study of Drosophila melanogaster with 20 samples.

Results

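The genes described here are the myosin chaperone unc-45 and 6 heat shock chaperones, DnaJ-1, Hsp27, Hsc70-4, Hsp83, Hsp26 and Hsp23, taken as every probe set annotated to one of these 7 names. Of the 7 genes, 6 had a probe set, and each of the 6 had 1, out of 10845 genes named on the array. All 6 passed the filter on low signal and were among the 8358 genes tested. Hsp23 had no probe set named to it and was not analysed here. Hsp83 was not in the platform annotation and was named through the RefSeq gene table, which lists its probe set as a synonym of Hsp83. Of the synonyms of this kind in that table, 111 also had a platform annotation, and 111 of the 111 gave the same gene. A further 2 probe sets are annotated to Hsc70-4 together with Acbp3, so neither was assigned to Hsc70-4. One had group means from 3.02 in null to 9.88 in control embryos, near or below the low-signal filter level of 9.29. The other had group means of 29.0 in null and 31.3 in control embryos, with the highest, 33.3, in 113. Neither mean was higher in null than in control embryos. The probe set of Hsc70-4 alone had a mean of 3615 over all arrays.

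Chaperones bind proteins that are unfolded or only partly folded and help them reach or regain their native shape. Unc-45 proteins act on myosin heavy chain, whose motor domain needs help to fold, and hold Hsp90 through a tetratricopeptide repeat domain. Hsp83 is the fly's cytosolic Hsp90, Hsc70-4 is a constitutive cytosolic Hsp70, DnaJ-1 is an Hsp40 that stimulates Hsp70's ATPase, and Hsp26, Hsp27 and Hsp23 are small heat shock proteins that keep unfolded proteins from aggregating. DnaJ-1, Hsp83, Hsp26 and Hsp27 are induced by heat through the transcription factor Hsf, and Hsp83 also has a high level without stress. Mef2 is a transcription factor needed for muscle differentiation.

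Total RNA of whole Drosophila melanogaster embryos at mid stage 13 was hybridised to 20 Affymetrix arrays, 4 for each of 5 genotypes, to follow transcript levels as Mef2 activity was lowered. The genotypes were the mef2 null allele 22.21, the hypomorphic (reduced-function) alleles 113, 424 and 65, and a control stock labelled Dp cn a px sp, which carries visible marker mutations and in which the 3 hypomorphs were induced, per the labels. How the stock of the null allele relates to that control is not stated. The labels give the order of falling Mef2 level as control, 65, 424, 113 and null. Collections of 30 min were aged 6.5 h at 25 °C, mutants were picked for lacking a CyO balancer with twi-driven GFP, and embryos were pooled by 150. Whether replicate arrays stem from separate collections is not stated, and the p-values then cover only array-to-array spread, part of which may be technical. In whole embryos, fewer cells of a type and less RNA per cell cannot be told apart.

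Array medians lay between 33.7 and 37.4 signal units, and the number of arrays limits the precision of every value below. All null medians, 33.7 to 34.8, lay below all control medians, 35.5 to 37.3. The signal of the GAPDH control probe set nearest the transcript's end, over that nearest its start, ran from 0.35 to 6.24, both on null arrays. The same ratio was 1.75 to 3.02 for actin and 3.20 to 4.93 for eIF-4a. Mef2 itself was not analysed here, so the targeted gene gave no check of the labels. The muscle markers did follow the labelled order in their summed signal, taken over the 9 of 10 listed that passed the low-signal filter. The sum was 329 to 358 in null, 490.0 to 600.5 in 113 and 646 to 888 in 424. It was 1100.0 to 1320 in 65 and 1441 to 1782 in control embryos. The run records give 4 hybridisation days and 4 fluidics modules. The 65 arrays were run on 2 of the 4 days, and all 4 control arrays on module 4, a module that otherwise held only 2 null arrays. For 113, 424 and 65, module and genotype therefore cannot be told apart from the arrays of any 1 module.

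unc-45 was lower than in control embryos in all 4 mutants, and to nearly the same level in each. Its signal was 271, 266, 236 and 179 on the 4 null arrays. It was 208, 225, 272 and 236 in 113, 286, 196, 242 and 241 in 424, and 254, 237, 245 and 263 in 65, against 505, 358, 407 and 388 in control embryos. Each of the 16 mutant arrays lay below each of the 4 control arrays, and the mutant genotypes overlapped one another. The means were 238 ± 42.4 in null, 235 ± 27.1 in 113, 241 ± 36.7 in 424 and 249.6 ± 11.2 in 65, against 415 ± 63.6 in control embryos (SD, n = 4 each). 

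On the scale log2(signal + 16), unc-45 differed from control by -0.77 in null (SE 0.12, limma, Benjamini-Hochberg adjusted p = 5.65e-05), a 1.70-fold lower level. It fell by 0.77 in 113 (limma adjusted p = 1.40e-04), by 0.74 in 424 (1.95e-04) and by 0.69 in 65 (6.66e-04). These 4 contrasts share the control arrays. The steps between mutants were small: null minus 113 was 0.01 with a 95% interval of -0.25 to 0.26, 113 minus 424 was -0.03 (-0.28 to 0.23), and 424 minus 65 was -0.06 (-0.31 to 0.20). The null minus 65 difference, a comparison added after the data were seen, was -0.08 (-0.34 to 0.17, limma adjusted p = 0.744). An allelic effect within these intervals would not have been detected. A linear trend over the 5 ranks was called (-0.16 per rank of Mef2 loss, limma adjusted p = 1.31e-04), although no step between 2 mutants was.

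The myosin light chains measured on the same arrays followed another course. Mlc2, a regulatory light chain, had signals of 35.3 to 50.7 in null, 52.6 to 66.8 in 113, 132 to 219.9 in 424, 311 to 387 in 65 and 449 to 570.0 in control embryos. Mlc1, an alkali light chain, differed from control by -3.09 in null, -2.52 in 113, -1.44 in 424 and -0.82 in 65 on the log2 scale, and Mlc2 by -3.09, -2.85, -1.41 and -0.58 in the same order (limma adjusted p at most 0.00883). The Mlc1 means in null lay below the filter level of 9.29 signal units, so the size of that value depends on the pseudocount. The light chain means thus stepped down with each loss of Mef2 activity, while no step in unc-45 between neighbouring mutants exceeded 0.06. Of the 7 measured genes on the list of myosin genes, 3 were lower and none higher in null, where 11% of all genes were called lower. In 113, 2 were lower (3.95% of all genes), and in 65, 2 were lower (3.1%). In 424, 2 were lower (5.52%) and 1 higher, where 10.2% of all genes were called either way. Besides the light chains these were Mhcl, a myosin heavy chain-like gene (-0.62 in null), and Mlc-c, the cytoplasmic light chain (0.36 in 424). Mhc, the muscle heavy chain itself, was not analysed here.

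**Figure D1:**
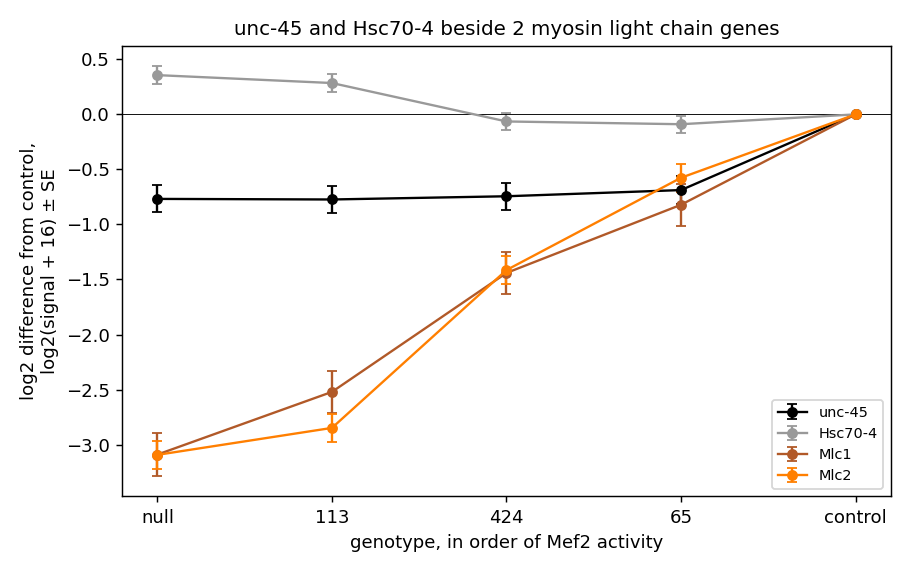
Differences from control of unc-45, Hsc70-4, Mlc1 and Mlc2 on the log2(signal + 16) scale (vertical axis) in each genotype, ordered by Mef2 activity (horizontal axis), with limma standard errors over 4 arrays per genotype. unc-45 sits between -0.77 and -0.69 in all 4 mutants, while Mlc1 and Mlc2 run from -3.09 in null to -0.82 and -0.58 in 65.

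Each day held 1 control array, and within each day unc-45 was lower in the mutants. The log2 difference from that control array was -0.41 to -1.05 in null, -0.56 to -1.22 in 113, -0.65 to -0.82 in 424 and -0.65 or below in 65. On module 4 alone, the 2 null arrays differed from the 4 controls by -0.67. The null call held under every alternative run, and the other 3 calls under all but 1. With module as a block, the differences were -0.60 in 113 (limma adjusted p = 0.294), -0.52 in 424 (0.453) and -0.44 in 65 (0.557), with standard errors 1.85 to 2.03 times as large. The part of the module in these 3 values cannot be told apart from the genotype. Summed signals of markers of other tissues also differed, although such sums follow the brightest markers most. For the 3 tested fat body markers of 6 listed, the sum was 1387 to 1721 in null and 1816 to 2101 in 113. It was 1658 to 1919 in 424 and 1794 to 2162 in 65, against 2169 to 2286 in control embryos. Of the 3, only apolpp was called, lower in null and 424, and the median difference of the 3 was -0.03 in null and 0.02 in 65. The summed signal of the 4 tested neuron markers of 8 listed was 606 to 827 in null and 720.4 to 952 in 113. It was 729.8 to 982 in 424 and 819 to 889.8 in 65, against 557 to 655 in control embryos. None of the 4 was called, and their median difference was -0.12 in null, 0.10 in 113, 0.26 in 424 and 0.36 in 65. For the 8 epidermis markers, the sum was 1239 to 1308 in null and 1160.2 to 1225 in 424. Both lay wholly below the 1369 to 1521 of control embryos, while 113 and 65 overlapped them. In null, 1 of the 8 was called higher (8.87% of all genes) and 1 lower (11%). In 424, 2 were called lower (5.52%). The median difference of the 8 was -0.09 in null and -0.04 in 424. For the 7 tested glia markers of 8 listed, the sum was 1291 to 1341 in 424, against 1405 to 1469 in control embryos. It overlapped the controls in the other alleles. The glia markers went in both directions: in null, 2 were called higher (8.87% of all genes) and 3 lower (11%). In 424, 1 was called higher and 2 lower, where 10.2% of all genes were called. The part of these shifts in the unc-45 result was not tested.

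The 3 genes whose signal was most like that of unc-45 over the 20 arrays, by Pearson's r of the log2 values, were CG3552 (0.88), glob1, which encodes a globin (0.86), and kar, a monocarboxylate transporter-like gene (0.85). CG3552 averaged 54.6 in null, 43.1 in 113, 34.3 in 424 and 40.5 in 65, against 301 in control embryos. All 3 had, like unc-45, 1 high genotype, the control, and 4 low ones. unc-45, glob1 and kar are on chromosome arm 3R, and CG3552 is on 3L. Any part of differences between the stocks in this likeness was not tested. The points share arrays and genotypes, and the correlations are a description.

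**Figure D2:**
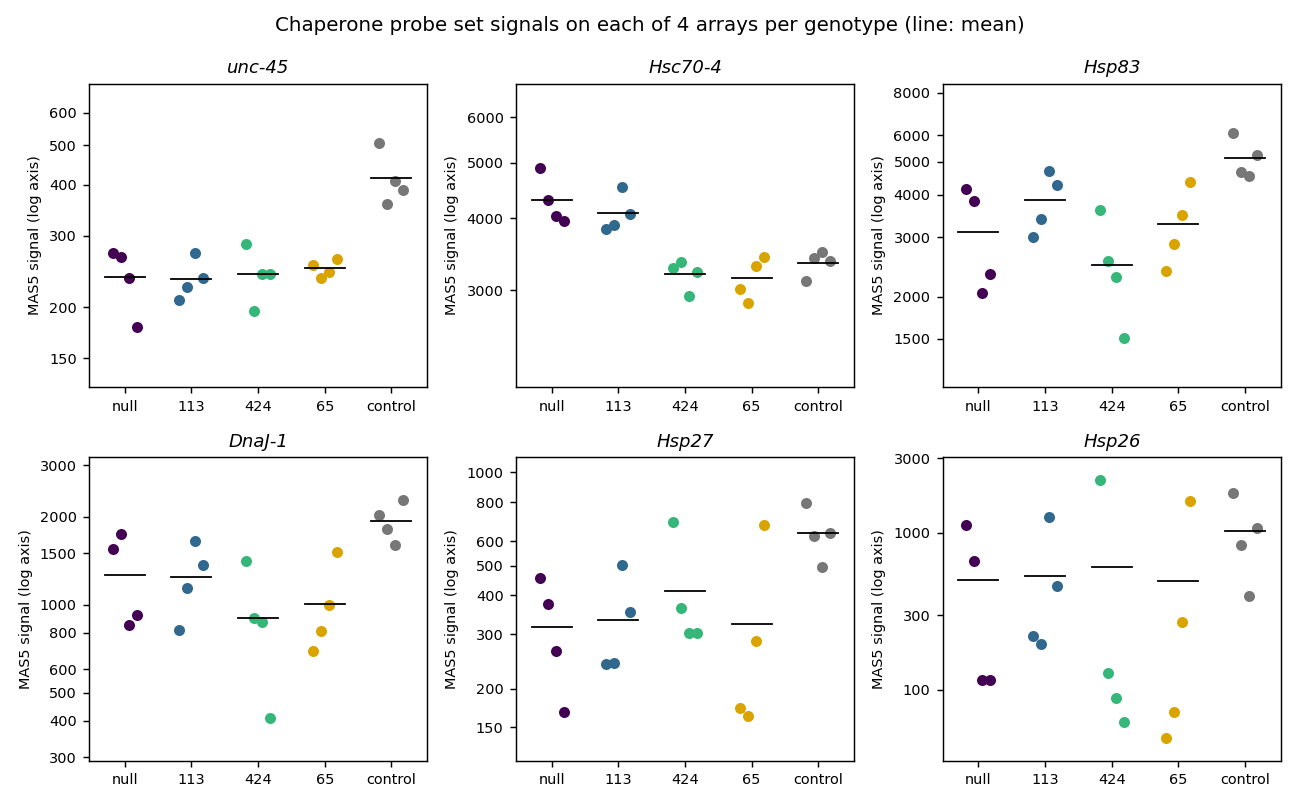
Deposited signal of the 6 chaperone probe sets (vertical axes, logarithmic) on each array, by genotype (horizontal axes). Points are the 4 arrays and lines their means. The unc-45 points of the 4 mutants, 179 to 286, all lie below the control points, 358 to 505, while the Hsp26 points of 1 genotype spread from 62.7 to 2167.

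Hsc70-4 was higher than in control embryos in null and 113, the alleles with the least Mef2. This Hsp70, which folds new proteins and uncoats clathrin vesicles, had signals of 4899.9, 4303, 4034 and 3957 in null and 3834, 3897, 4535 and 4068 in 113. It had 3279, 3359.7, 2930.4 and 3229 in 424 and 3014, 2847, 3307 and 3426 in 65, against 3116, 3408, 3487 and 3367 in control embryos. All null and 113 arrays lay above all arrays of 424, 65 and control, and these other 3 genotypes overlapped.

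Hsc70-4 was higher than control by 0.36 in null (SE 0.08, limma adjusted p = 0.00196, 1.28-fold) and by 0.28 in 113 (SE 0.08, limma adjusted p = 0.0256). It differed from control by -0.06 in 424 (95% interval -0.23 to 0.10) and -0.09 in 65 (-0.25 to 0.07), neither of which was called. The difference between alleles was itself called at the step from 113 to 424, 0.35 for 113 minus 424 (limma adjusted p = 0.0064), and for null minus 65, 0.45 (limma adjusted p = 2.25e-04). Null minus 113 was 0.07 (-0.09 to 0.24). Within days, the null arrays lay 0.21 to 0.65 above the control array and the 113 arrays 0.19 to 0.38 above it. The 113 call was lost with quantile normalization (0.20, limma adjusted p = 0.0978), without the variance trend (0.0777), with module as a block (0.43, 0.232) and without 113 replicate 3 (0.23, 0.116), 113 replicate 4 (0.29, 0.0531) or control replicate 1 (0.25, 0.0964). The null call held under every one of these.

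Hsc70-4 was also the steadiest of the 6 genes. Its standard deviation within genotypes was 0.11 on the log2 scale, at the 6.09th percentile of all genes tested, and 79.8% of its variation lay between genotypes, against 76.9% for unc-45 and a median of 35.4% over all genes. The genes most like it were VhaPPA1-1, a subunit of the vacuolar proton pump (r = 0.86), meigo (0.85) and Vrp1, a regulator of actin assembly that acts in myoblast fusion (0.81). VhaPPA1-1 averaged 718 in null and 740.4 in 113, with 337 in 424, 356 in 65 and 324 in control embryos. It thus showed the same grouping of null with 113. Hsc70-4, VhaPPA1-1 and meigo are on chromosome arm 3R, and Vrp1 is on 2R. Any part of differences between the stocks in this grouping was not tested.

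Hsp83, the Hsp90 with which Unc-45 works, had a lower mean than control in every mutant, with the difference called in null and in 424. It had no called difference between the mutants compared. Its signal was 4166, 3844, 2048 and 2329 in null, 2994, 3402, 4706 and 4288 in 113, 3605, 2548, 2287 and 1514 in 424, and 2385, 2862, 3485 and 4365 in 65, against 6083, 4665, 4529 and 5253 in control embryos. All null, 424 and 65 arrays lay below all controls, and 113 overlapped them through replicate 3. The difference from control was -0.78 in null (SE 0.23, limma adjusted p = 0.0168) and -1.10 in 424 (limma adjusted p = 0.00223). It was -0.43 in 113 (limma adjusted p = 0.336) and -0.67 in 65 (limma adjusted p = 0.0938), neither of them called. The null call was lost without null replicate 3 (-0.61, limma adjusted p = 0.0796), null replicate 4 (-0.67, 0.0645) or control replicate 1 (-0.70, 0.0565), and with module as a block (-0.80, 0.0658), and the 424 call with module as a block, where the difference was -0.997 (0.425) and its standard error 1.99 times as large. Without 65 replicate 4, whose run record marks its wash as aborted, the 65 difference was called (-0.82, limma adjusted p = 0.0429).

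DnaJ-1, the Hsp40, had a lower mean than control in every mutant, with the difference called in 424 and in 65. It had no called difference between the mutants compared. It had signals of 1548, 1739.6, 850.0 and 918 in null, 817, 1138, 1648 and 1369 in 113, 1407, 902, 873 and 409 in 424, and 694, 811, 995 and 1514 in 65, against 2032, 1815, 1601 and 2279 in control embryos. All 424 and 65 arrays lay below all controls, whereas null replicate 2 and 113 replicate 3 reached into the control range. The difference was -1.20 in 424 (SE 0.29, limma adjusted p = 0.0070, 2.30-fold lower) and -0.98 in 65 (limma adjusted p = 0.0399), and -0.66 in both null (0.111) and 113 (0.198), which were not called. Among the alternatives run, the 424 call was lost only with module as a block, where the difference was -1.19 (limma adjusted p = 0.422) and its standard error 1.90 times as large. The 65 call was lost with no filter (0.0678), without the variance trend (0.0883), with module as a block (0.612) and without 65 replicate 1 (0.151), 2 (0.110) or 3 (0.0748) or control replicate 1 (0.0992), 2 (0.0732) or 4 (0.106).

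Of the small heat shock proteins, Hsp27 had a called difference in null and in 65, both close to the threshold. Its signal was 455, 375, 265 and 168 in null, 241, 242, 500.5 and 353 in 113, 693, 364, 302 and 302 in 424, and 173, 164, 285 and 677 in 65, against 799, 624, 494 and 635 in control embryos. All null arrays lay below all controls, and 1 array each of 113, 424 and 65 reached into the control range. The difference from control was -1.05 in null (SE 0.34, limma adjusted p = 0.0318) and -1.15 in 65 (limma adjusted p = 0.0444), and -0.94 in 113 (0.107) and -0.67 in 424 (0.247), not called. The null call was lost without null replicate 3 (0.0745) or 4 (0.132) and without control replicate 1 (0.0919), 2 (0.0594) or 4 (0.0595), as well as with no filter (0.0530), without the variance trend (0.0631) and with module as a block (0.228). The 65 call was lost without 65 replicate 1 (0.171), 2 (0.169) or 3 (0.0820) and without control replicate 1 (0.140), 2 (0.0879) or 4 (0.0820). It was also lost without null replicate 3 (0.0518), 113 replicate 4 (0.0501) or 424 replicate 2 (0.0532), and under 6 of the 13 other settings. With module as a block the difference in 65 shrank to -0.41 (0.902), and that in 113 to -0.41 and in 424 to 0.17, neither called.

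Hsp26 varied far more within genotypes than between them. It had signals of 1117, 661, 115 and 116 in null and 219, 196, 1267 and 459 in 113. It had 2167, 128, 88.7 and 62.7 in 424 and 49.4, 71.9, 271 and 1593 in 65, against 1787, 845, 399 and 1071 in control embryos. The highest of all 20 values and the lowest but 1 were both 424 arrays, and each mutant overlapped the controls. Over all arrays the range was 43.9-fold. The standard deviation within genotypes was 1.68 on the log2 scale, at the 99.99th percentile of all genes, and 20.7% of the variation lay between genotypes. The differences from control were -1.43 in null (SE 0.95, limma adjusted p = 0.334), -1.13 in 113 (0.593), -2.02 in 424 (0.201) and -2.01 in 65 (0.288), and none was called. With module as a block they were -1.25 in null, -0.62 in 113, -0.53 in 424 and -0.66 in 65. Without 424 replicate 1 the 424 difference was -3.11 and was called (limma adjusted p = 0.0226). The 95% intervals of these differences reached from -3.98 to 0.83, and differences within them were not resolved.

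**Figure D3:**
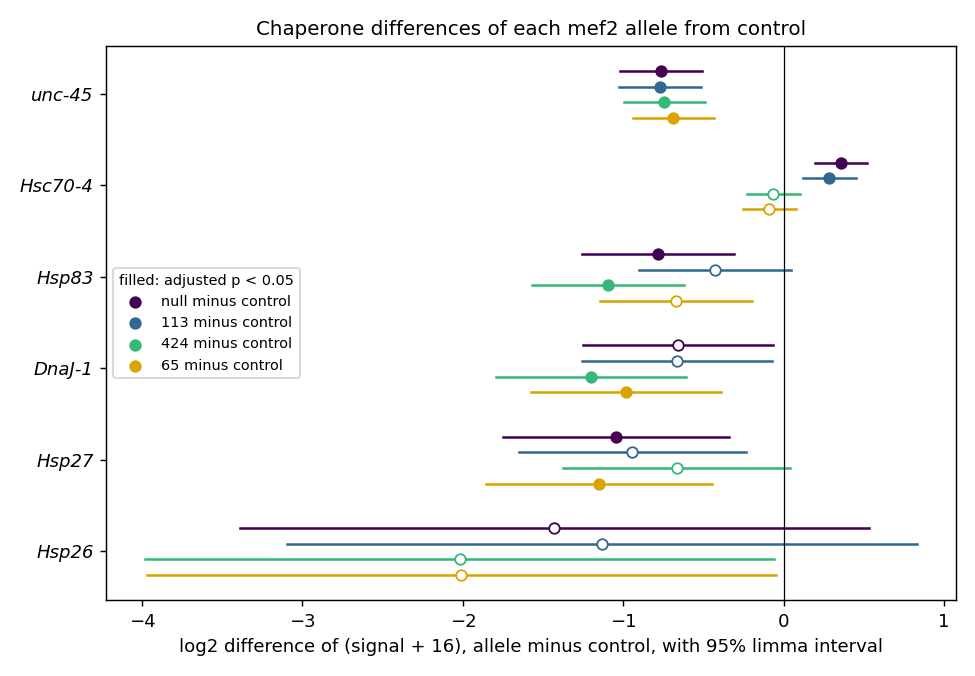
Differences of each allele from control on the log2(signal + 16) scale (horizontal axis) for the 6 chaperone genes (vertical axis), with 95% intervals from limma over 20 arrays. Filled points passed an adjusted p of 0.05. The 4 unc-45 intervals lie below 0 and are narrow, Hsc70-4 lies above 0 in null and 113 alone, and the Hsp26 intervals are the widest.

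Counted together, 4 of the 6 genes were called in null against control, where 19.8% of all genes tested were called. Of these, 1 was higher (8.87% of all genes) and 3 were lower (11% of all genes). In 113, 2 were called, where 7.38% of all genes were, 1 of them higher (3.43%) and 1 lower (3.95%). In 424, 3 were called, all lower, where 10.2% of all genes were called and 5.52% were called lower. In 65, 3 were called, all lower, where 6.07% of all genes were called and 3.1% were called lower. The median difference of the 6 genes was -0.78 in null, -0.72 in 113, -0.92 in 424 and -0.84 in 65, beside medians of -0.01, 0.00, 0.01 and 0.01 over all genes. Of the 6, arrays of the mutant lay wholly below the controls for 3 genes in null, where this held for 11.3% of all genes, for 1 in 113 (6.56%), 3 in 424 (7.97%) and 3 in 65 (5.34%). Hsc70-4 lay wholly above them in null (9.67% of all genes) and 113 (5.86%). These contrasts share the control arrays and were not independent of one another. The genes were chosen with earlier results of these data known, and 4 of them deviated together from array to array. The counts are a description.

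Between alleles, 1 gene, Hsc70-4, was called at the step from 113 to 424, where 7.25% of all genes were called and 4.09% were higher in 113. Its 113 arrays lay wholly above the 424 arrays, as for 6.69% of all genes. For null against 65 it was again Hsc70-4, where 16.3% of all genes were called and 6.83% were higher in null, with the null arrays wholly above the 65 arrays, as for 8.17% of all genes. At the step from null to 113 limma called 0 of the 6, and 0 had an unadjusted p under 0.05, where 15.2% of all genes were called. At the step from 424 to 65 it also called 0 of the 6, with 0 at an unadjusted p under 0.05, where 4.61% were called. The trend over the ranks was called for 2 of the 6, where 17.9% of all genes were called. Hsc70-4 rose with the loss of Mef2 (7.93% of all genes), by 0.11 per rank (limma adjusted p = 7.87e-05), and unc-45 fell with it (9.94% of all genes). The Hsc70-4 rise was not graded. Its 65 and 424 differences from control were -0.09 and -0.06, and of its steps between neighbouring mutants only 113 minus 424, 0.35, was called. Hsp83, DnaJ-1, Hsp27 and Hsp26 had trends of -0.13, -0.10, -0.19 and -0.20, none called.

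The 4 heat-inducible genes, Hsp83, DnaJ-1, Hsp27 and Hsp26, deviated together from array to array. After the mean of its genotype was taken from each array, the 6 pairs of these genes had correlations of 0.81 to 0.96 over the 20 arrays, with a median of 0.89. The points share the array and its RNA pool. The arrays with the highest Hsp26 were null replicate 1, 113 replicate 3, 424 replicate 1, 65 replicate 4 and control replicate 1, and the same arrays were highest for Hsp27 and Hsp83. DnaJ-1 differed from this in null, where replicate 2 was highest, and in control, where replicate 4 was. These arrays were run on day 1 (null, 424 and control) and day 3 (113 and 65), so that no 1 day held all of them, and the control array of day 3 had the lowest Hsp26 of the controls. Any part of collection, handling or hybridisation in these deviations was not tested.

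Hsp68, a heat-inducible Hsp70, showed the same course, with 657, 506, 124 and 138 in null, 111, 162, 804 and 535 in 113, 1349, 127, 66.1 and 25.5 in 424, 51.9, 53.0, 192 and 1085 in 65, and 1156, 544, 349.7 and 793 in control embryos. Its deviations correlated with those of Hsp26 at 0.98. The transcript of Hsf, the factor that drives these genes upon heat, stayed within 195 to 264 on all 20 arrays. Within genotypes its deviations correlated at 0.49 with those of Hsp26 and at 0.36 with those of DnaJ-1. The activity of the Hsf protein was not measured. By likeness over the 20 arrays, Hsp26 was closest to Hsp68 (r = 0.98), Hsp27 (0.89) and DnaJ-1 (0.87). Hsp27 was closest to Hsp26 (0.89), Hsp68 (0.85) and CG14183 (0.82). DnaJ-1 was closest to Hsp83 (0.94), CG6770 (0.92) and Hsp68 (0.91), and Hsp83 to CG6770 (0.95), DnaJ-1 (0.94) and Sgt1, an Hsp90 co-chaperone (0.90). Hsp26 and Hsp27 lie close together on chromosome arm 3L, with Hsp67Ba, asRNA:CR43481 and Hsp23 between them, Hsp83 and DnaJ-1 are also on 3L, and Hsp68 is on 3R.

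**Figure D4:**
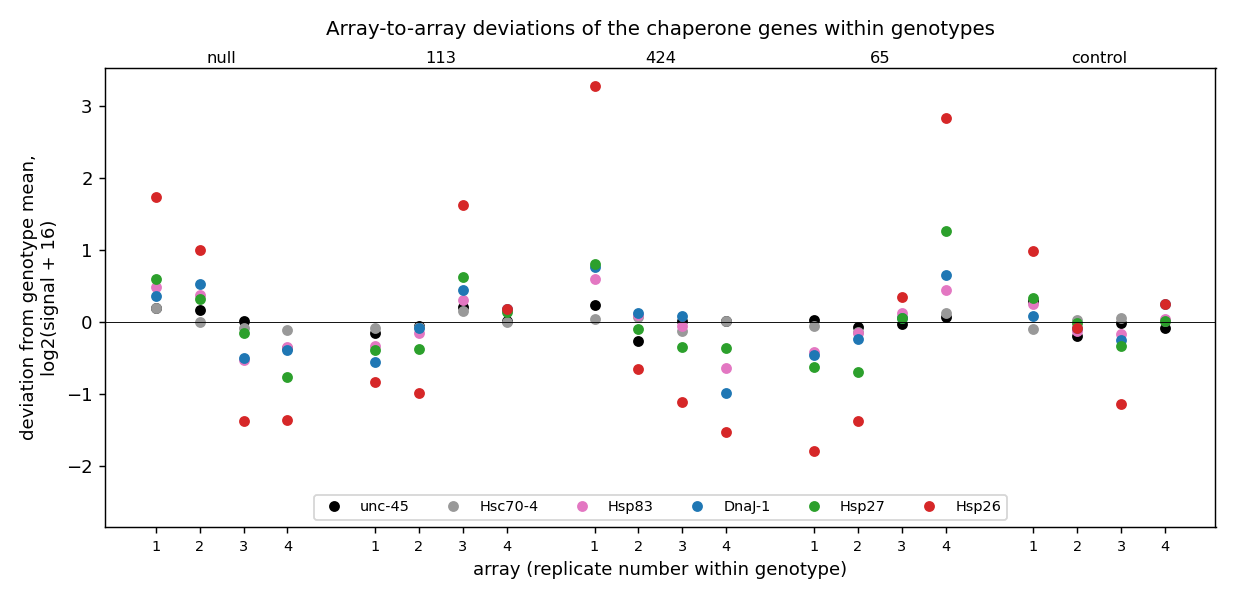
Deviation of each array from the mean of its genotype on the log2(signal + 16) scale (vertical axis) for the 6 chaperone genes, by array within genotype (horizontal axis). Hsp26 has the widest spread, and Hsp83, DnaJ-1 and Hsp27 are high on arrays where it is high. unc-45 and Hsc70-4 spread less, from -0.37 to 0.29 and from -0.14 to 0.19. In each genotype unc-45 is also highest on the array where Hsp26 is.

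unc-45 varied less from array to array. Its deviations correlated with those of the other 5 genes at 0.31 to 0.64, and its standard deviation within genotypes, 0.19 on the log2 scale, was at the 39.1th percentile of all genes. In every genotype, the array with the highest Hsp26 was also the array with the highest unc-45. There unc-45 had 271 in null, 272 in 113, 286 in 424, 263 in 65 and 505 in control embryos. The part of the heat shock transcripts in the unc-45 difference was not tested. Hsc70-4 deviated with the 4 heat-inducible genes at correlations of 0.51 to 0.70, over a narrower range of signal.

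Other chaperone genes, taken from 6 lists of the same machinery, had calls in both directions. Of the 43 that passed the low-signal filter and were tested, 7 were called in null (16.3%, against 19.8% of all genes). In 113, 3 were called (6.98%, against 7.38%), in 424, 5 (11.6%, against 10.2%) and in 65, 1 (2.33%, against 6.07%). These shares do not set these genes apart. Of the 3 other small heat shock genes tested, CG4461, CG13133 and l(2)efl, none was called in any allele against control. The same held for the 3 other Hsp70 genes tested, Hsp68, the endoplasmic reticulum form Hsc70-3 and the mitochondrial form Hsc70-5. Of 10 DnaJ genes and Hsp70 co-chaperones tested, Sec63, of the endoplasmic reticulum translocation machinery, was higher in null (0.40) and 113 (0.34). P58IPK, an endoplasmic reticulum DnaJ protein, was higher in 113 (0.26) and 424 (0.35), and Droj2 was lower in 424 (-0.41). None of the 10 was called in 65.

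Of 11 Hsp90 genes and co-chaperones tested, p23 was higher in null (0.37) and Dpit47 (-0.37) and Fkbp59, a peptidyl-prolyl isomerase (-0.77), were lower there. In 424, CG1416 (-0.40) and Sgt1 (-0.42) were lower, and none of the 11 was called in 113 or 65. Fkbp59 averaged 122 ± 32.4 in null, against 217 ± 28.6 in control embryos (SD, n = 4 each). Of 12 chaperonin and prefoldin genes tested, CCT6, a subunit of the cytosolic chaperonin, was higher in null (0.32), 113 (0.38) and 65 (0.28). Hsp60C, a mitochondrial-type chaperonin, was lower in null (-1.05) and 424 (-0.59). Hsp60C averaged 5.09 in null embryos, below the filter level, so that the size of its null difference depends on the pseudocount. Of 4 genes listed as heat shock regulators, CG5446 was lower in null (-0.64) and Hsf and the chromatin proteins Pc and Trl were not called in any allele.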

How the data were processed

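The authors deposited 1 linear intensity for each probe set on each array. The submitters' processing notes name MAS5 as their tool. Its version and the genome build were not given in the sources used here. Each array had a trimmed mean of 100.02, so values were already scaled. The members and gene lists were chosen with earlier results of these data known, and part of the code came from an earlier analysis of them. Of 14010 probe sets, 44 controls were left out, 12443 had 1 symbol, 327 had several and 1196 had none; 12394 matched RefSeq's gene table. The brightest probe set stood for its gene, and the lowest 25% of probe sets by mean (signal under 9.29) were left out. limma 3.58.1 (R 4.3.3; 15 residual degrees of freedom, with 8.53 prior ones at the median, variance trend) fitted 1 mean per genotype over 20 arrays to log2(signal + 16), which understates changes of low genes, with Benjamini-Hochberg adjustment over 8358 genes and calls at 0.05. Contrasts were each allele against control, the steps between neighbouring alleles, null against 65 (added later) and a trend over ranks. Named genes were the members, called genes of each list, and the 3 genes most correlated with each member. The fit was tested on simulated data. Other pseudocounts, filters, scalings, probe set rules, blocks and array omissions were tried. python 3.11.15, numpy 2.4.6, pandas 2.3.3 and matplotlib 3.10.9 were used. No sequence or coordinate is printed, as no build is stated.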

Additional observations from a re-analysis of the deposited data

Results flagged for a closer look

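In 3 of 30 gene and genotype groups, 1 array stood apart from the other 3 on the linear signal scale by more than Dixon's 95% critical value. Chance alone gives about 1 in 20 groups. Hsp26 in 424 had a gap of 0.969 of the group's range, between replicate 1 at 2167 and the next array at 128. Hsp26 in 65 had a gap of 0.856, between replicate 4 at 1593 and the next at 271. Hsp27 in 424 had a gap of 0.842, between replicate 1 at 693 and the next at 364. On the log2(signal + 16) scale none of the 30 groups passed the critical value, and Hsp26 in 424 came nearest at 0.819.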

How the results depend on the processing

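The 54 differences and trends of the 6 genes were recomputed under 1776 alternatives in all. Of these, 1671 kept the direction and the side of the threshold, 47 lost a call, 11 gained one and 47 turned the direction, 0 of which had been or became called. The replicate number was the hybridisation day for 18 of 20 arrays, all but 2 of the 65 arrays. Same-numbered arrays of different genotypes correlated in their deviations at -0.02 to 0.17, 10 of 40 pairs above 0.1, and 17 of 20 arrays correlated best with their own number, but not every pair exceeded 0.1, so the numbers were not taken as pairs. With the replicate block, 1880 genes were called in null against 1658 without it, and neither this block nor a day block changed any call of the 6 genes. Without a filter, 1 of the 6 was called in 65. Without the variance trend, 1 was called in 113 and 1 in 65. With quantile normalization 1 was called in 113, and with only the groups compared 4 were. With module as a block, 2 of the 6 were called in null and 0 in 113, 424 and 65. The module block left 82 genes called in 113, 80 in 424, 64 in 65, 574 for null against 113, 311 for 113 against 424, 214 for 424 against 65 and 961 for the trend. The 113, 424 and 65 arrays shared no module with the control arrays. Over the 6 genes, their differences from control had standard errors 1.73 to 2.05 times as large with module as a block. The part of module itself in these counts was not tested. Leaving out 1 array gave 2 to 4 of the 6 genes called in null, 1 to 3 in 113, 1 to 4 in 65 and 1 to 2 for 113 against 424.

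Differences that turned direction, none of them called, were the following. For 424 minus 65, Hsp26 was 0.0082 with median centring, 0.025 with quantile normalization, 0.39 with a day block and 0.13 with a module block, and unc-45 was 0.041 with a day block. For null minus 113, DnaJ-1 was -0.058 with quantile normalization, and unc-45 was -0.068 and Hsc70-4 -0.016 with a module block. For 424 minus control, Hsp27 was 0.17 and Hsc70-4 0.068 with a module block, and for 65 minus control Hsc70-4 was 0.0092 with it. For 113 minus 424, Hsp26 was -0.091 with a module block. For null minus 65, unc-45 was 0.017 with a day block, and Hsp27 was -0.42 and Hsp26 -0.58 with a module block. Leaving out 1 array gave, for null minus 113, -0.060 to 0.13 for unc-45, -0.18 to 0.17 for DnaJ-1, -0.30 to 0.15 for Hsp27 and -0.88 to 0.24 for Hsp26. For 113 minus 424 it gave -0.12 to 0.052 for unc-45. For 424 minus 65 it gave -0.14 to 0.033 for unc-45, -0.47 to 0.11 for DnaJ-1, -0.022 to 0.067 for Hsc70-4 and -1.10 to 0.93 for Hsp26. For null minus 65 it gave -0.15 to 0.042 for unc-45, -0.12 to 0.53 for Hsp27, -0.27 to 0.066 for Hsp83 and -0.019 to 1.52 for Hsp26. A fit of only the groups compared was not run for the trend, which uses all 5 genotypes.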

Other observations

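CG6770 had the signal most like that of Hsp83 over the 20 arrays. It had 1701, 1250.3, 761 and 680.0 in null, 883, 1000.5, 1673 and 1021 in 113, 1303, 687, 728 and 446 in 424, and 763, 881, 1058 and 1672 in 65, against 2369, 1659, 2077 and 1910.0 in control embryos. Its highest mutant arrays were null replicate 1, 113 replicate 3, 424 replicate 1 and 65 replicate 4, the arrays on which Hsp26 was also highest. Within genotypes its deviations correlated with those of Hsp83 at 0.93 over the 20 arrays.

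glob1, next to CG3552 in likeness to unc-45, averaged 503 in null, 458 in 113, 431 in 424 and 609.7 in 65, against 1832 in control embryos. Within genotypes its deviations correlated with those of unc-45 at -0.02, so that the likeness over all arrays came from the levels of the genotypes.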
